A study of Mus musculus with 6 samples.

Results

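The FGF homologous factors are Fgf11, Fgf12, Fgf13 and Fgf14, 4 genes whose proteins carry the fibroblast growth factor fold but stay inside the cell. They were found by matching their symbols to the mouse gene identifiers in the deposited table of read counts, which gave 4 of its 47937 rows. All 4 were among the 20006 genes with at least 10 counts in total that were tested. Total RNA of dorsal root ganglia (DRGs) taken at cervical, thoracic and lumbar levels was sequenced in 3 control and 3 Tlx3cko samples, from C57BL/6 mice of about 2 months. The controls were labelled wild type, and the Tlx3cko mice were Tlx3f/f;SNS-cre, in which the promoter of the sodium channel gene Scn10a drives Cre in most nociceptors from late embryonic life. Tlx3 is a homeobox transcription factor of sensory neurons, and the comparison asked how its loss from nociceptors changed the DRG transcriptome. Because the Cre acts in a subset of the neurons while the RNA came from whole ganglia, fewer cells of a type and less RNA per cell cannot be told apart.

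Unlike the secreted FGFs, these factors stay in the cell and act mainly through partners in the cytoplasm. They bind the C-terminal tail of voltage-gated sodium channel alpha subunits and shift how the channels inactivate, and FGF13 also binds tubulin and stabilizes microtubules. In DRG neurons FGF13 is known for its part in heat nociception, where it associates with the channel Nav1.7, the product of Scn9a. FGF12 and FGF14 are known from inherited epilepsy and ataxia, respectively, and FGF11 is the least studied of the family.

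The 4 members are separate genes with related coding sequences, and the reads of each depend on how well they can be told from the others. Below is the stretch of 60 coding bases in which they were most alike. It spans the junction of exons 4 and 5 in each gene, so the coordinates enclose an intron. Capitals mark bases that differ from Fgf13 at the same place, of which Fgf11 had 13, Fgf12 had 16 and Fgf14 had 11. All are on the minus strand of GRCm38, from GENCODE M21 transcripts.
Fgf11 (chr11:69798262-69798612): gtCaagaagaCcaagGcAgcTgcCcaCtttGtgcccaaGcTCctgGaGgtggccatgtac
Fgf12 (chr16:28162525-28189482): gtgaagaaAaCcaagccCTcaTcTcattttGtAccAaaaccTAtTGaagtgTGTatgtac
Fgf13 (chrX:59063659-59067449): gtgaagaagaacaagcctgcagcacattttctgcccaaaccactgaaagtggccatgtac
Fgf14 (chr14:123980472-123983817): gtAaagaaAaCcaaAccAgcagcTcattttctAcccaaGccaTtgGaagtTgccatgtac
Over their longest coding sequences, the pairs were identical at 59.9% of aligned bases (Fgf11 and Fgf14) to 69.3% (Fgf12 and Fgf14). The longest run shared by any transcripts of a pair was 28 bases, between Fgf11 and Fgf12. No member shared a stretch of at least 100 bases at 98% identity with another member.

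Fgf11 (ENSMUSG00000042826) is a compact gene at chr11:69796068-69801857. The other members spread over far longer spans, namely Fgf12 (ENSMUSG00000022523) at chr16:28160098-28753068, Fgf13 (ENSMUSG00000031137) at chrX:59062145-59568071 and Fgf14 (ENSMUSG00000025551) at chr14:123977907-124677127. Fgf12, Fgf13 and Fgf14 each make proteins with different first exons, and those N-terminal ends are known to change how the protein acts on sodium channels. The first 30 coding bases of some of the annotated starts show how far apart they are, with the start codon in capitals, and 2 of the 4 distinct coding starts of Fgf13 are not shown. The letters A and B only tell the printed starts of a gene apart.
Fgf11 start (chr11:69801596-69801625): ATGgcggcgttggccagtagcctgatccga
Fgf12 start A (chr16:28445162-28445191): ATGgctgcggcgatagccagctccttgatc
Fgf12 start B (chr16:28398372-28752846, across an intron): ATGgagagcaaagaaccccagctgaaaggg
Fgf13 start A (chrX:59134034-59134063): ATGgcggcggctatcgccagctcgctcatc
Fgf13 start B (chrX:59131934-59567151, across an intron): ATGcttctaagggagcctcagcttaagggt
Fgf14 start A (chr14:124192492-124192521): ATGgccgcggccatcgccagcggcttgatc
Fgf14 start B (chr14:124676688-124676717): ATGgtaaaaccggtgcccctcttcaggaga
The deposited counts are 1 number per gene and pool these transcripts, so every value below is for the gene as a whole.

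The 6 libraries held between 11458299 and 18775628 counts. Counts were normalized by TMM and are given as normalized counts at the mean effective library size of 14970767. The targeted gene Tlx3 went from 2057 ± 173 to 1495 ± 141 normalized counts (SD of 3 libraries each), a log2 fold change of -0.46 (SE 0.09, adjusted p = 0.0122 by edgeR's quasi-likelihood test). That call was lost in 4 of 15 alternatives, when Tlx3cko replicate 2, Tlx3cko replicate 3 or control replicate 2 was left out and against control replicate 3 alone (highest adjusted p 0.175, same edgeR test). Pan-neuronal genes such as Uchl1 and Prph, which mark the labelled tissue, were abundant in every library, and the summed pan-neuronal list lay between 137200 and 144100 normalized counts in control and between 133300 and 143800 in Tlx3cko libraries. The sum hides 2 calls in opposite directions. Gap43 was higher (log2 fold change 0.46, adjusted p = 0.0118) and Syt1 lower (-0.36, adjusted p = 0.0202, both by edgeR's quasi-likelihood test). Their calls were lost in 1 and 5 of 15 alternatives. Xist had 591 and 493 counts in control replicates 1 and 2 but at most 2 in control replicate 3 and in Tlx3cko libraries, where the Y-linked gene Ddx3y had 273 to 525, so sex was unevenly spread over the groups. Skeletal muscle genes also differed in level between libraries, with summed normalized counts of the 5-gene list between 88.5 and 1779 in control and between 1478 and 2776 in Tlx3cko libraries. The labels tie no library to a named animal, and p-values set the difference between groups against the spread between these libraries.

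Fgf13 was the most abundant member in DRGs, Fgf12 came next, Fgf11 followed well below, and Fgf14 was close to the limit of detection. Per kilobase of exon, control libraries had 1163 ± 93.3 normalized counts on Fgf13, 423.9 ± 36.8 on Fgf12, 74.2 ± 8.73 on Fgf11 and 5.71 ± 2.07 on Fgf14 (SD of 3 libraries each). Neighbours in this order were separated by more than their spread in both genotypes, and the order was the same in Tlx3cko DRGs. There the levels were 1052 ± 62.1 for Fgf13, 353.7 ± 18.1 for Fgf12, 138.5 ± 17.7 for Fgf11 and 2.89 ± 0.776 for Fgf14 (SD of 3 libraries each). Among 19739 tested genes with an exon length, the level of Fgf13 per kilobase lay above 96.5% of genes and that of Fgf12 above 89.2%. Fgf11 lay above 59.9% of genes on this scale and Fgf14 above 18.8%.

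**Figure D1:**
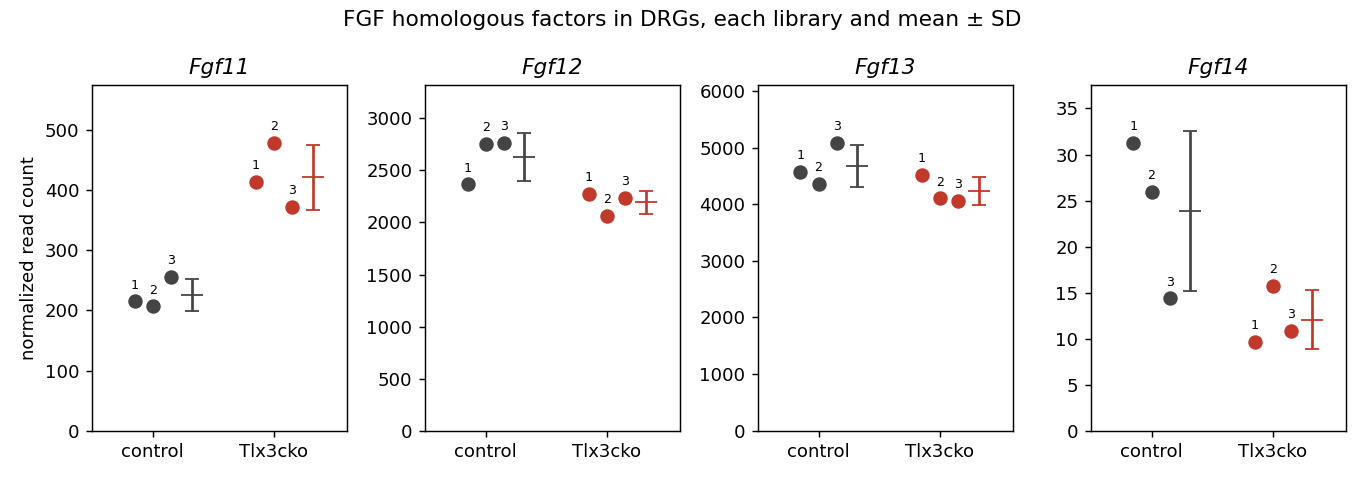
Normalized read counts (y axis, linear from 0, scaled separately for each gene) of Fgf11, Fgf12, Fgf13 and Fgf14 in the 3 control (grey) and 3 Tlx3cko (red) libraries, with numbered points for replicates and bars for mean ± SD. The Tlx3cko values of Fgf11 (372.0 to 479.0) lie above all control values (206.5 to 256.1), while those of Fgf13 and Fgf14 overlap the control range.

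Fgf11 rose in Tlx3cko DRGs. Its raw counts were 199, 207 and 321 in control replicates 1, 2 and 3 and 430, 365 and 378 in Tlx3cko replicates 1, 2 and 3. After normalization these were 214.8, 206.5 and 256.1 in control and 413.8, 479.0 and 372.0 in Tlx3cko libraries. The lowest Tlx3cko library thus stood above the highest control library, and control replicate 3 was the highest of the controls. The means were 225.8 ± 26.6 and 421.6 ± 53.9 normalized counts (SD of 3 libraries each), which is 1.87 times the control level. The log2 fold change was 0.89 (SE 0.14, 95% interval of the fold 1.51 to 2.29, adjusted p = 0.00213 by edgeR's quasi-likelihood test, adjusted over all genes by the Benjamini-Hochberg method). An exact two-sided permutation test on this gene alone gave p = 0.1, the smallest value that 3 libraries against 3 allow. By fold change Fgf11 ranked 119 among the 339 genes that were higher in Tlx3cko DRGs. Compared with control replicate 3 alone, which has Y-linked counts as the Tlx3cko libraries do, the log2 fold change was 0.71 and the call was lost (adjusted p = 0.0888, edgeR's quasi-likelihood test). The part that sex has in the difference was not tested beyond this.

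The annotated neighbours of Fgf11 did not move with it past the threshold. Chrnb1, which encodes a subunit of the muscle acetylcholine receptor, starts 125 bases downstream of the 3′ end of Fgf11, on the same strand. It had 148.4 normalized counts in control against 132.7 in Tlx3cko DRGs (log2 fold change -0.16, SE 0.25, adjusted p = 0.855 by edgeR's quasi-likelihood test). Tmem102, 1746 bases away on the other side, had few counts, with 11.8 in control and 18.2 in Tlx3cko DRGs after normalization (adjusted p = 0.709, same edgeR test). These were the only tested genes within 10000 bases of Fgf11, a window chosen after the values of Fgf11 were seen. The skeletal muscle list was also higher in most Tlx3cko libraries, with sums of 2776, 2386 and 1478 in replicates 1, 2 and 3. In control replicates 1, 2 and 3 its sums were 1779, 503 and 88.5, where Fgf11 had 214.8, 206.5 and 256.1 normalized counts. The part of muscle RNA in the difference of Fgf11 was not tested. Of the 5 muscle genes, Myh4 passed the threshold, with 117.3 ± 110 normalized counts in control against 828.2 ± 397 in Tlx3cko DRGs (SD of 3 libraries each, adjusted p = 0.0101 by edgeR's quasi-likelihood test), a call lost in DESeq2 and without control replicate 2 (highest adjusted p 0.0717).

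Fgf12 had lower values in Tlx3cko DRGs by a small amount that did not pass the threshold. Its normalized counts were 2366, 2754 and 2768 in control replicates 1, 2 and 3 and 2278, 2067 and 2237 in Tlx3cko replicates 1, 2 and 3. The groups did not overlap, but control replicate 1 stood only slightly above Tlx3cko replicate 1. The means were 2629 ± 228 and 2194 ± 112 (SD of 3 libraries each), and the log2 fold change was -0.26 (SE 0.08, 95% interval -0.44 to -0.08). In edgeR's quasi-likelihood test the unadjusted p was 0.00876 and the adjusted p 0.125, and the exact permutation test gave p = 0.1. Without control replicate 1 the log2 fold change was -0.33 and passed the threshold (adjusted p = 0.0381, edgeR's quasi-likelihood test), so the call depended on that library.

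Fgf13, the most abundant member and the one tied to microtubules, had overlapping values in the 2 genotypes. Its normalized counts were 4571, 4362 and 5091 in control replicates 1, 2 and 3 and 4516, 4106 and 4064 in Tlx3cko replicates 1, 2 and 3. Control replicate 3 was the highest library, and Tlx3cko replicate 1 lay above control replicate 2. The means were 4675 ± 375 and 4228 ± 250 (SD of 3 libraries each), with a log2 fold change of -0.14 (SE 0.08, adjusted p = 0.468 by edgeR's quasi-likelihood test). The 95% interval of the fold, from 0.802 to 1.02, bounds the difference at this depth. Fgf13 is X-linked, and against control replicate 3 alone its log2 fold change was -0.27 (adjusted p = 0.245, same edgeR test).

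Fgf14 was barely sampled, and its difference could not be resolved at this depth. Its raw counts were 29, 26 and 18 in control replicates 1, 2 and 3 and 10, 12 and 11 in Tlx3cko replicates 1, 2 and 3. After normalization these were 31.3, 25.9 and 14.4 in control and 9.62, 15.8 and 10.8 in Tlx3cko libraries. The controls with Xist counts were high, while control replicate 3 lay inside the Tlx3cko range. The means were 23.9 ± 8.66 and 12.1 ± 3.24 (SD of 3 libraries each), and the log2 fold change was -0.98 with an SE of 0.47 (95% interval of the fold 0.251 to 1.02, adjusted p = 0.367 by edgeR's quasi-likelihood test). Against control replicate 3 alone it was -0.27 with an SE of 0.73 (adjusted p = 0.946, same edgeR test). Of its exon bases, 5.26% lie under the antisense gene Gm28932, which had 13.2 normalized counts in control against 16.5 in Tlx3cko DRGs, and the strand setting of the counting is not given in the sources used here.

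Among the 4 members, 1 was called at an adjusted p under 0.05, and it was higher in Tlx3cko DRGs (edgeR's quasi-likelihood test). Of all genes tested, 4.25% were called, 1.69% higher and 2.56% lower. The groups did not overlap for Fgf11 and Fgf12, against 19.7% of all genes tested, 8.87% higher and 10.8% lower. The same 2 members had an unadjusted p under 0.05, as did 14.5% of all genes. With 4 members, these shares describe the family and do not set it apart from other genes.

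**Figure D2:**
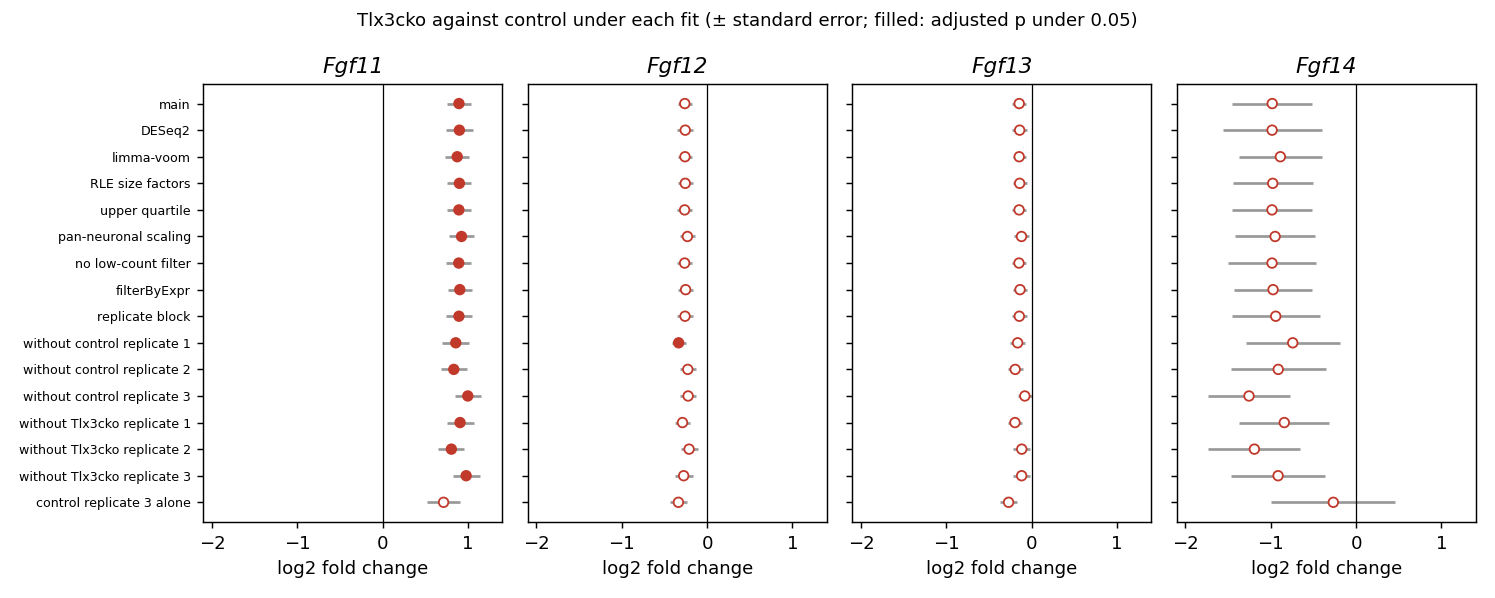
Log2 fold change of each member, Tlx3cko against control (x axis), under the main fit and 15 alternatives (y axis), with bars for ± standard error and filled points for an adjusted p under 0.05. Fgf11 stays positive throughout and loses its call only against control replicate 3 alone (0.71), whereas Fgf12 is called only without control replicate 1 (-0.33), and Fgf13 and Fgf14 are called in no fit.

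The balance between members was compared as log2 ratios within each library, which do not depend on library size. The ratio of Fgf11 to Fgf13 rose from a mean of -4.38 in control to -3.33 in Tlx3cko libraries, a difference of 1.04 (SE 0.12). The control values lay between -4.41 and -4.31 and the Tlx3cko values between -3.45 and -3.10, so the groups were apart by more than their spread. The ratio of Fgf11 to Fgf12 differed by 1.16 (SE 0.17) and that of Fgf11 to Fgf14 by 1.84 (SE 0.45), again with no overlap. All 3 ratios share Fgf11 and are not independent of its own difference. The last one also rests on Fgf14, which had 10 to 29 raw counts per library. For each of these 3 ratios the exact two-sided permutation p was 0.1, the smallest possible, and 0.2 after Benjamini-Hochberg adjustment over the 6 pairs. The other 3 pairs overlapped, and the ratio of Fgf12 to Fgf13 differed by -0.12 (SE 0.10, exact permutation p = 0.3).

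As a share of the 4 members' sum per kilobase of exon, Fgf11 made up 4.42%, 4.23% and 4.67% in control replicates 1, 2 and 3. It made up 8.35%, 10.4% and 8.17% in Tlx3cko replicates 1, 2 and 3. The mean share was 4.44% ± 0.222 in control and 8.96% ± 1.23 in Tlx3cko DRGs (SD of 3 libraries each, exact two-sided permutation p = 0.1). Fgf13 kept the largest share, with 69.8% ± 1.84 and 68.0% ± 0.866, and Fgf12 made up 25.5% ± 1.99 and 22.9% ± 1.10 (SD of 3 libraries each). Fgf14 made up 0.349% ± 0.143 and 0.188% ± 0.055. The sum of the 4 genes was 1667 ± 116 in control and 1547 ± 71.6 normalized counts per kilobase in Tlx3cko DRGs, with overlapping values (exact two-sided permutation p = 0.3). When coding length replaced exon length, the share of Fgf11 went from 3.23% to 6.66%.

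**Figure D3:**
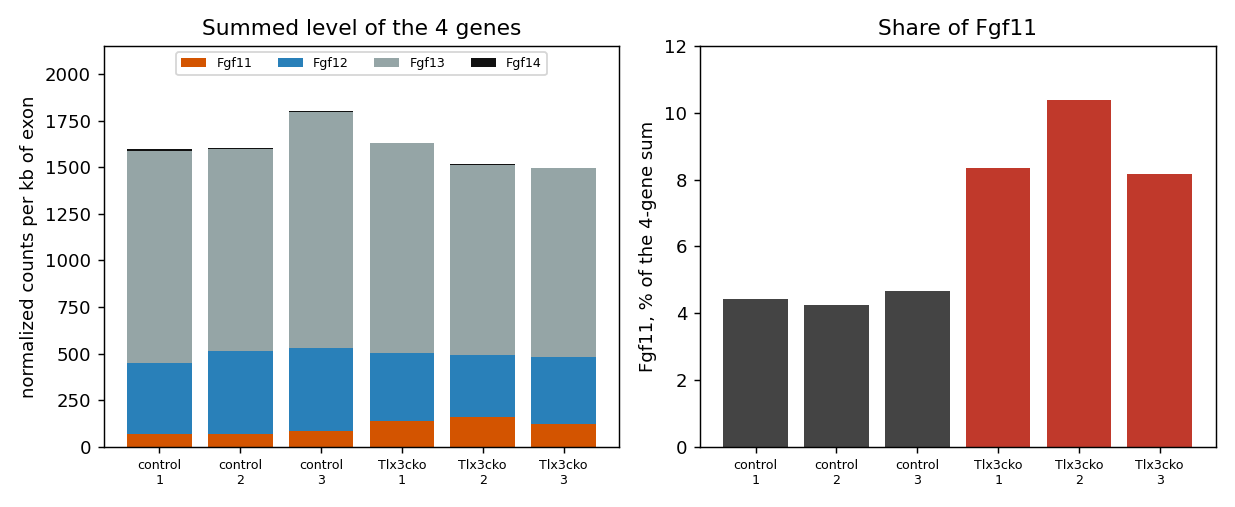
Left, normalized counts per kilobase of exon (y axis) of the 4 members stacked in each library; right, Fgf11 as a percentage of that sum (y axis) in control (grey) and Tlx3cko (red) libraries. Fgf13 fills most of every bar on the left, and the share of Fgf11 lies between 4.23% and 4.67% in control and between 8.17% and 10.4% in Tlx3cko libraries.

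Each member's pattern over the 6 libraries was compared with those of 13373 genes, by the root mean square (RMS) difference of centred log2 normalized counts. The closest to Fgf11 was Camkv, a kinase-like vesicle protein gene on chromosome 9, at an RMS difference of 0.04 where the SD of Fgf11 itself was 0.47. Camkv had 44.9 normalized counts in control against 84.0 in Tlx3cko DRGs, and the next closest gene, Gm26548, had 70.6 and 124.4. The closest to Fgf12 were Taldo1, an enzyme of the pentose phosphate pathway (RMS difference 0.02), and Csnk2a1, a catalytic subunit of casein kinase CK2 (0.03). Fer, a tyrosine kinase gene, and Dram2 were closest to Fgf13, both at 0.02. The lipid kinase gene Pik3c2b (0.14) and Kdm6a (0.21), an X-linked histone demethylase gene, were closest to Fgf14. These are the smallest of many differences over 6 libraries and describe likeness only.

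Sodium channel alpha subunits, the main binding partners of the family, were tested as a list of 10 genes. Of these, 3 rose, 1 fell and 6 did not pass the threshold (median log2 fold change 0.23, against -0.0036 over all genes). Of all genes tested, 1.69% were called higher and 2.56% lower, and no set test was run on this or the other lists. Scn4a, the skeletal muscle channel Nav1.4, rose from 176.5 ± 24.6 to 338.0 ± 31.5 normalized counts (SD of 3 libraries each). In control replicates 1, 2 and 3 Scn4a had 200.8, 151.6 and 177.1 normalized counts, and in Tlx3cko replicates 1, 2 and 3 it had 336.9, 370.0 and 307.1. The sums of the skeletal muscle list, given above, were higher in most Tlx3cko libraries but overlapped between the groups. The part of muscle RNA in the change of Scn4a was not tested.

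Scn10a encodes Nav1.8 and its promoter also drives the Cre. It was the most abundant alpha subunit per kilobase and rose from 24210 ± 1097 to 32660 ± 2160 normalized counts (SD of 3 libraries each, log2 fold change 0.43). Only the Tlx3cko samples were labelled as carrying that Cre, and its part in the rise of Scn10a was not tested. Scn11a, the nociceptor channel Nav1.9, fell from 8362 ± 826 to 4829 ± 287 normalized counts (SD of 3 libraries each), a log2 fold change of -0.79 (SE 0.08, adjusted p = 0.00011 by edgeR's quasi-likelihood test). Scn9a, whose product Nav1.7 is bound by FGF13, did not pass the threshold, with 4790 ± 666 in control and 4509 ± 238 normalized counts in Tlx3cko DRGs (SD of 3 libraries each), and was singled out for that partnership after its values were seen. Among the 4 beta subunits, which are accessory to the channel pore, Scn3b fell from 1279 ± 13.5 to 810.1 ± 65.0 normalized counts (SD of 3 libraries each) and the other 3 did not pass the threshold.

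The scaffold list holds 9 genes of scaffold and adhesion proteins, listed for the axon initial segment and the node of Ranvier. Of these, 3 rose and 6 did not pass the threshold (median log2 fold change 0.19). The shares called over all genes were 1.69% higher and 2.56% lower. Nfasc, an adhesion protein of both sites, rose from 3989 ± 363 to 5687 ± 457 normalized counts, and its log2 fold change was 0.51 (SE 0.09, adjusted p = 0.00384 by edgeR's quasi-likelihood test). Cntn1, an axonal adhesion protein, rose from 6280 ± 420 to 8952 ± 1264 normalized counts. Nrcam, an adhesion protein of the L1 family, rose from 1193 ± 35.2 to 1505 ± 15.7 normalized counts (SD of 3 libraries each). The call of Nrcam was lost in 6 of 15 alternatives, including those without control replicate 2, control replicate 3, Tlx3cko replicate 2 or Tlx3cko replicate 3, and that of Cntn1 in 1, against control replicate 3 alone (highest adjusted p 0.228 and 0.098, edgeR's quasi-likelihood test). L1cam, the most abundant of the list per kilobase, had 7955 ± 357 and 7400 ± 170 normalized counts.

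Of 20 tubulins and microtubule-associated proteins, 2 rose, 2 fell and 16 did not pass the threshold (median log2 fold change 0.03). Over all genes, 1.69% were called higher and 2.56% lower. Map2, which stabilizes dendritic microtubules, rose from 1561 ± 214 to 2288 ± 110, and Stmn1, which destabilizes microtubules, rose from 4115 ± 240 to 5577 ± 387 normalized counts (SD of 3 libraries each). The beta tubulin gene Tubb2b fell from 5344 ± 432 to 3257 ± 264 normalized counts, and Dpysl2, a tubulin-binding protein of growing axons, fell from 4802 ± 987 to 3398 ± 432 (SD of 3 libraries each). The call of Dpysl2 was marginal (adjusted p = 0.0497 by edgeR's quasi-likelihood test) and was lost in 10 of 15 alternatives, among them all fits that left out 1 library except the one without control replicate 3. Tuba1a was the most abundant of this list per kilobase and had 54980 ± 1281 and 54100 ± 1927 normalized counts. Counts of near-identical tubulin copies are uncertain where the counting could split them.

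Other reported partners and kinases (the scaffold Mapk8ip2, calmodulins, GSK3 beta and CK2) passed edgeR's threshold in 0 of 8 cases, with log2 fold changes between -0.27 and 0.23. An unadjusted p under 0.05 was found for 2 of them, and DESeq2, limma-voom and edgeR with the filterByExpr filter each called 1. The most abundant per kilobase was Calm3, with 31230 ± 2142 and 33430 ± 1154 normalized counts (SD of 3 libraries each). The secreted FGFs, which act on receptors at the cell surface, were tested as 10 of 18 listed genes, and 0 passed the threshold. Fgf1 was the most abundant of them per kilobase, with 11320 ± 1141 in control and 11420 ± 509 normalized counts in Tlx3cko DRGs (SD of 3 libraries each). Of 7 receptors and co-receptors 6 were tested and 0 passed, and the most abundant, Fgfr1, had 4522 ± 522 and 4873 ± 233 normalized counts. Of the secreted FGFs and the receptors, 0 had an unadjusted p under 0.05 in edgeR, and DESeq2 and limma-voom called 0. In these 3 lists the medians of the log2 fold change were 0.02, 0.01 and 0.04.

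**Figure D4:**
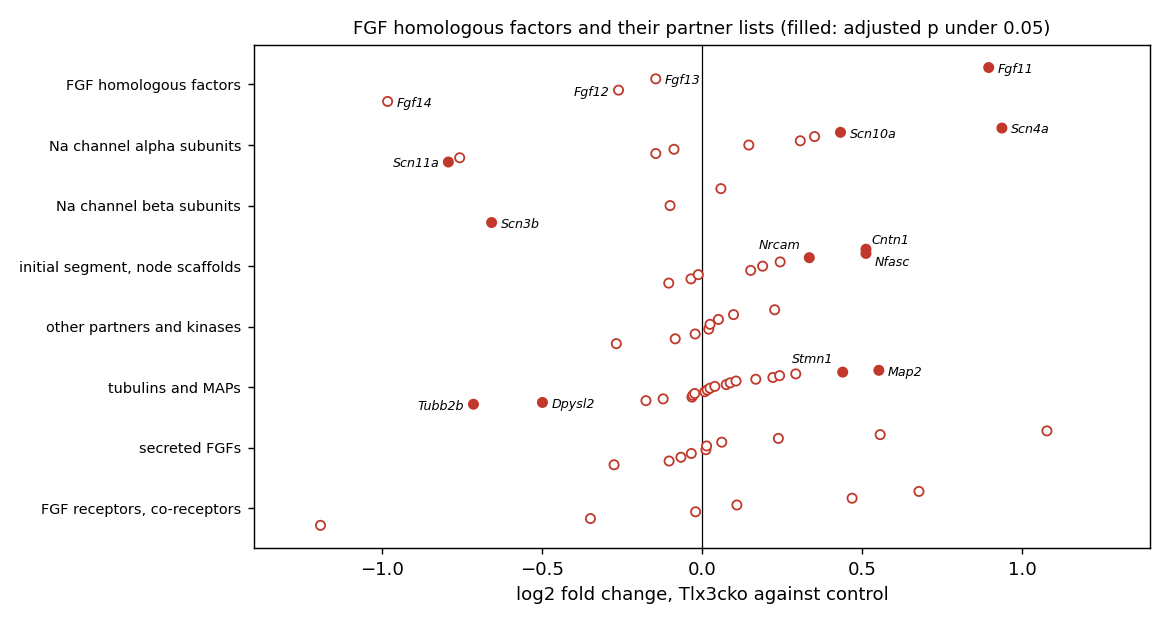
Log2 fold change, Tlx3cko against control (x axis), of the tested genes of the FGF homologous factors and 7 partner lists, apart from list genes that are not reported here (y axis), with filled points and names for genes at an adjusted p under 0.05; the 4 members are always named. Filled points lie on both sides of 0 among the alpha subunits and tubulins, and the secreted FGFs and receptors have none.

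Markers of DRG neuron classes moved in the same libraries. Of 5 genes marking the NP1 class of non-peptidergic nociceptors, all 5 fell, and their summed level lay between 11350 and 13220 normalized counts in control and between 5366 and 6191 in Tlx3cko libraries. Of the tested markers, 3 of 4 fell for NP2, 5 of 6 for NP3 and 4 of 4 for the tyrosine hydroxylase class, while 3 of 5 peptidergic and 4 of 8 myelinated markers rose. Over all genes tested, 1.69% were called higher and 2.56% lower. The paper had reported several of these markers as changed in the same libraries. Among them were Mrgprd, Lpar3, Mrgpra3, Hrh1, Trpv1 and the 5 NP3 markers that fell. The marker counts are therefore partly fixed by that report and are no separate support for it. The NP2 marker that did not fall, Mrgprx1, had 226.6 ± 120 in control and 433.6 ± 60.4 normalized counts in Tlx3cko DRGs without overlap (adjusted p = 0.0798 by edgeR's quasi-likelihood test), and it was called higher in 5 of 15 alternatives. The peptidergic marker Kit went the other way, from 1124 ± 77.4 in control to 879.2 ± 70.7 normalized counts in Tlx3cko DRGs without overlap. It did not pass the threshold (adjusted p = 0.0571 by edgeR's quasi-likelihood test), and DESeq2 called 1 peptidergic marker lower. The call of P2ry1 in the tyrosine hydroxylase class was lost in 5 of the 6 fits that left out 1 library. The exception was the fit without control replicate 1. Among the myelinated markers, the calls of Pvalb and Cntnap2 were lost without control replicate 2 or control replicate 3, and that of Cntnap2 also without any 1 of the Tlx3cko replicates. The summed peptidergic list lay between 23130 and 24440 in control and between 38680 and 41870 in Tlx3cko libraries. The summed myelinated list lay between 212700 and 213800 in control and between 253500 and 299000 in Tlx3cko libraries. Most of the myelinated sum was Nefm, with means of 181300 in control and 240000 in Tlx3cko DRGs, while Ntrk2, Ntrk3 and Runx3 overlapped between the groups. In edgeR 0 of 5 satellite glia, 0 of 5 blood, 0 of 6 immune and 0 of 3 spinal cord markers passed the threshold, with 2, 1, 1 and 1 at an unadjusted p under 0.05, and DESeq2 called 2 of the satellite glia markers and 0 of the others. Of the remaining lists, 1 of 6 Schwann cell markers rose and, of 5 vascular and fibroblast markers, 1 rose and 2 fell. These calls were not stable when libraries were left out. The Schwann cell gene Egr2 lost its call in 5 of 15 alternatives, though its log2 fold change stayed between 0.61 and 0.93. Among them were the fits without control replicate 1, control replicate 2, Tlx3cko replicate 2 or Tlx3cko replicate 3. The number of vascular and fibroblast markers called was 3 in all libraries but 0 without Tlx3cko replicate 2. It was 2 without control replicate 1 or Tlx3cko replicate 1, and 1 without any other library. The part of these classes in the change of Fgf11 was not tested.

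The RefSeq windows of 250 bases before the members' starts were searched on both strands for TAATT (a core of many homeobox sites), for GGGCGG (the GC box) and for TATAAA (the TATA box), a choice made after the values were seen. The single Fgf11 window held none of these letters. TAATT and TATAAA were in none of the 10 windows of the family, against 25.0% and 12.4% of 32851 windows of all genes, and GGGCGG was in 3 of 4 windows of Fgf12, 2 of 4 of Fgf13 and the 1 of Fgf14, against 32.7% of all. Windows of the same gene are not separate cases, and base composition was not matched.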

How the data were processed

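DRG total RNA of 3 control and 3 Tlx3cko samples was made into libraries with the NEBNext Ultra RNA kit and sequenced, and the authors deposited raw read counts per gene, without normalization. The submitters' processing notes name STAR 2.5.2a and mm10, without a role. The counting program, the annotation and the use of strand are not given in the sources used here. Of 47937 rows, 47729 carried Ensembl identifiers (47310 with a symbol in GENCODE M21) and 208 were loci outside the annotation. Groups came from the genotype labels.

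Genes with at least 10 counts in total were scaled by TMM, then tested in R 4.3.3 with edgeR 4.0.16 (glmQLFit and glmQLFTest), and Benjamini-Hochberg adjusted p under 0.05 over 20006 genes was the threshold. Standard errors and 95% intervals were worked out from each gene's fold change and F. Levels per kilobase used merged exon lengths. Single values were compared by exact permutation over the 6 libraries. The likeness measure used genes whose mean reached 50 normalized counts, with a pseudocount of 0.5, and that pseudocount was chosen after the data were seen. Transcripts were searched for shared stretches with blastn 2.17.0+. Replicate libraries differed by more than sampling noise (chi-square per degree of freedom 4.32 to 10.1). The fit was tested on simulated data. Alternatives were DESeq2 1.42.0, limma-voom (limma 3.58.1), other normalizations and filters, the replicate number as a block, each library left out, and control replicate 3 alone.

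Genes named are the members, Tlx3, Xist and Ddx3y, up to 4 called genes and the most abundant gene of each partner list, and the 2 genes closest in pattern to each member. Some genes that this rule covers are not reported here, in text or plots, though list counts, sums and medians include them. The neighbours of Fgf11, marker list examples, Scn9a, the stretches of sequence printed and the motifs were chosen after values were seen. Members and lists were chosen with earlier results of these data known.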

Additional observations from a re-analysis of the deposited data

How the results depend on the processing

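No direction among the 4 members, their ratios or their shares was reversed under any alternative run. The number of genes called, 851 in all, was 1529 without the low-count filter, 546 against control replicate 3 alone, and 488 to 938 when each library was left out in turn. DESeq2 called 1119. The number of members called, 1 in all, was 0 against control replicate 3 alone and 1 to 2 when each library was left out. Fgf11 kept its call in 14 of 15 alternatives, with log2 fold changes of 0.806 to 0.998 when each library was left out and adjusted p-values of 1.06e-07 to 0.0888 over all of them. The exception was control replicate 3 alone (0.71), a fit in which the lone control is assumed to vary like the Tlx3cko libraries. Fgf12 lay between -0.33 and -0.21 when each library was left out, and without control replicate 1 it passed the threshold at -0.33. Fgf13 lay between -0.19 and -0.08 and Fgf14 between -1.25 and -0.74. The rise in the share of Fgf11 was 4.52 percentage points by exon length and 3.42 by coding length. Scaling to pan-neuronal genes shifted the median of all genes to 0.03 and gave 682 calls. With the replicate number as a block 770 genes were called and Fgf11 had a log2 fold change of 0.89 (adjusted p = 0.00376, edgeR's quasi-likelihood test), but same-numbered libraries did not deviate together (correlations of -0.10, -0.04 and -0.10 over 15738 genes), so the numbers were not taken to pair them, and the block changed no call of a member. Of the 12 sodium channel, scaffold and microtubule genes called, 9 stayed past the threshold in all 15 alternatives and Nrcam, Cntn1 and Dpysl2 did not. For a single library at the mean raw count of its group, counting error alone was 20.3% in control and 30.2% in Tlx3cko for Fgf14. It was at most 6.42% for the other members.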
